A study of Mus musculus with 3 samples.

Results

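Hox genes encode homeodomain transcription factors. In the mouse genome they lie in 4 clusters, Hoxa, Hoxb, Hoxc and Hoxd. Within each cluster the genes are numbered from the 3′ end, and genes of the same number in different clusters are paralogs, copies of the same ancestral gene. Hox proteins bind DNA with partner proteins of the PBX and MEIS families, and in blood the Hoxa and Hoxb genes are best known from stem and progenitor cells, where Hoxa9 and Hoxb4 favour self-renewal. The MLL histone methyltransferase keeps Hox genes on, and Polycomb complexes keep them off.

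The expression of 37 Hox genes, of 37324 genes with a probe, was read on 3 microarrays of long-term hematopoietic stem cells (LT-HSCs), which sustain the blood lineages for life from the bone marrow. The 37 genes were taken by the gene name printed in the scanner files. They comprise 10 Hoxa, 9 Hoxb, 9 Hoxc and 9 Hoxd genes, and Hox genes other than these were not analysed here. Where a gene had several probes, the one with the highest mean signal over the 3 arrays was used.

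The arrays hold RNA of C57BL/6J mice labelled 11 weeks old, with 1 array per genotype. AtmsKO mice carried CAG-CreERT2 and Atm flox/flox alleles, and Atmp38dKO mice carried in addition p38α flox/flox alleles (p38α is the product of Mapk14). CAG-CreERT2 is a Cre recombinase driven by a ubiquitous promoter and switched on by tamoxifen, so deletion was not restricted to blood cells. Tamoxifen was given at about 5 weeks of age and cells were taken 4 weeks later per the series text, which does not add up to the labelled age. WT mice were controls, which per the methods received tamoxifen too but carried no Cre. The number of mice pooled on an array was not given in the sources used here. Because each group is 1 array, no p-value and no spread between mice could be given, and every difference below is one between arrays and not between genotypes.

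The targeted genes were examined as a check of the labels. Both Atm probes were lowest on the AtmsKO array, with signals of 87.0 (WT), 23.9 (AtmsKO) and 86.5 (Atmp38dKO) at the first and 88.8, 16.3 and 49.0 at the second. The Mapk14 probes read 469, 558 and 616, and 295, 260 and 345, so Mapk14 was not lower on the array labelled Atmp38dKO. Atm was not clearly lower there either: its log2 differences from WT were -0.22 and -1.07, and both probes lay above the AtmsKO array, by 1.57 and 1.30. Both targeted genes thus went against that label at 1 probe or more. Whether these probes lie in the deleted exons was not examined, and a probe outside them checks nothing. Atmp38dKO and mutant below therefore mean the label of an array.

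All 10 genes listed as stem cell markers were well above background on all 3 arrays. Their summed signals were 7686 (WT), 7011 (AtmsKO) and 7707 (Atmp38dKO). These sums and those that follow are unscaled. The 75th percentile of the signals was 101.5 (WT), 96.2 (AtmsKO) and 117.8 units (Atmp38dKO). An equal sum is therefore a lower scaled level on the Atmp38dKO array. Markers of other cells were present as well: 8 of 8 granulocyte and monocyte markers (summed signal 5046 to 6094), 6 of 6 megakaryocyte markers (2044 to 3501), 10 or 11 of 11 stroma and bone markers (659 to 743), 5 or 6 of 6 erythroid markers (257 to 388), 5 or 6 of 6 B cell markers (369 to 473), 4 of 5 T cell markers (647 to 902) and 5 of 6 endothelial markers (777 to 838). Cdh5, the cadherin that defines endothelium, was well above background on none. Transcripts of the 4 surface proteins used to gate cells out (Cd48, Cd34, Flt3, Itga2b) were also well above background on every array. Single markers moved between the arrays by more than these sums. On the AtmsKO array Kdr (endothelium) was higher than WT by 4.36 on the log2 scale, from a dim WT signal of 5.88. Pdgfrb (stroma) was higher by 2.10, and Pf4 and Vwf (megakaryocytes) by 1.29 and 1.01, while the B cell marker Vpreb1 differed by at least -2.34. Other endothelial markers were lower there (Emcn -0.53, Pecam1 -0.48, Vcam1 -0.47) or level (Tie1 0.04), and Sp7 (stroma) was lower (-0.91). Gp1bb and Gp9 (megakaryocytes) were level (-0.01 and 0.01), and Cd79b (B cells) was 0.21 higher. On the Atmp38dKO array Kdr was higher than WT by 1.41 and Prrx1 (stroma) by at least 3.35 at its brightest probe and 0.32 at the next, while Vpreb1, Vcam1 (endothelium) and the stem cell marker Fgd5 differed by -1.24, -1.46 and -1.72. Other markers of these lists did not move alike: Cxcl12 (stroma) differed by -0.85, Cd79b (B cells) by -0.13 and Kit (stem cells) by 0.08. The part of other cells in the Hox differences was not tested, and in such bulk RNA fewer cells of a type and less RNA per cell cannot be told apart.

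The probes are 60 bases long, and some of them lie in the part of the coding sequence that Hox proteins share. They are shown here because conserved codons recur in probes of different Hox genes. The Hoxc11 probe covers codons of the core of the recognition helix of the homeodomain, the helix that sits in the major groove of DNA. The Hoxc11, Hoxc12 and Hoxd10 probes cover the turn that leads into this helix and its start. The Hoxa6 probe covers the short motif upstream of the homeodomain through which Hox proteins bind PBX. Capitals mark the codons of these conserved parts, and all sequences run 5′ to 3′ on the transcript's strand:
Hoxc11: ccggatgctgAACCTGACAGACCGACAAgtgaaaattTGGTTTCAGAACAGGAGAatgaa
Hoxc12: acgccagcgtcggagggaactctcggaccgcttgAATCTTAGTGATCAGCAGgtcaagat
Hoxd10: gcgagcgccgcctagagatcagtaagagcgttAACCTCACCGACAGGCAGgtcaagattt
Hoxa6: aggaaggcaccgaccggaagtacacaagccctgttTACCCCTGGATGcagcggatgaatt

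In mm9, the build of the files, these probes lie at chr15:102787015-102787074 (Hoxc11, plus strand), chr15:102768819-102768878 (Hoxc12, plus strand), chr2:74532280-74532339 (Hoxd10, plus strand) and chr6:52158194-52158253 (Hoxa6, minus strand). The pair with the most identical bases in an ungapped alignment was Hoxc12 with Hoxd10, with 35 over 58. The other 5 pairs shared 21 to 25 bases over 38 to 60. Among them Hoxc11 with Hoxd10 shared 24 over 38, a higher share of a shorter overlap. The probe chosen for Hoxa9 spans an exon junction, chr6:52174477-52175581 on the minus strand, and it is shown without capitals because it holds none of these motifs:
Hoxa9: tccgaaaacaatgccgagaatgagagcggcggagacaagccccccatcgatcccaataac

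A probe was called well above background by the scanner software's flag. Of the 37 Hox genes, 23 (62.2%) were well above background in the WT sample, 22 (59.5%) in AtmsKO and 27 (73.0%) in Atmp38dKO. Over all genes the shares were 75.4%, 71.3% and 79.6%. On all 3 arrays it was 21 Hox genes, 56.8%, beside 68.4% of all genes. Another 7 passed on 1 or 2 arrays, and 9 on none. On each array the Hox share was the lower one, but this depends on the flag. By the software's more lenient flag, for a signal that is positive and significant, 34 (91.9%), 33 (89.2%) and 33 (89.2%) of the Hox genes passed, beside 91.3%, 88.1% and 93.6% of all genes.

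The 4 clusters differed in how many of their genes were above background. In the Hoxa cluster (chr6:52112595-52209039 from the first to the last probe) 9 of 10 genes passed on all 3 arrays, an unbroken run from Hoxa2 to Hoxa10 among the genes analysed, and Hoxa13. Hoxb (chr11:96057854-96228510) and Hoxd (chr2:74509248-74603059) each had 5 of 9, and Hoxc (chr15:102759058-102867272) had 2 of 9, Hoxc5 and Hoxc9. By the lenient flag it was 10 of 10 for Hoxa, 6 of 9 for Hoxb, 8 of 9 for Hoxc and 7 of 9 for Hoxd, so Hoxa stayed the fullest cluster and Hoxc was no longer the emptiest. By position, 5 of 7 genes of paralog groups 1 to 3, 8 of 14 of groups 4 to 8 and 8 of 16 of groups 9 to 13 passed on all 3 arrays. Groups 2, 3 and 5 passed in full on all 3 arrays, with 2, 3 and 2 genes analysed. Neither gene of group 1 passed on any array.

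The 9 genes well above background on none of the arrays were Hoxa11, Hoxb1, Hoxb8, Hoxb13, Hoxc8, Hoxc12, Hoxd1, Hoxd9 and Hoxd11. Their signals lay between 1.02 and 5.36 units, where the lowest signal well above background was 5.33 (WT), 6.12 (AtmsKO) and 4.97 (Atmp38dKO). Within group 9, Hoxd9 was therefore not detectable at this signal while Hoxa9, Hoxb9 and Hoxc9 were. Within group 11 no gene passed on all arrays, and Hoxc11 passed only on the Atmp38dKO array.

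Of the 7 genes that passed on only some arrays, 4 did so on the Atmp38dKO array alone: Hoxc10 (5.98), Hoxc11 (5.59), Hoxc13 (8.05) and Hoxd4 (5.53). These signals are at the edge of detection, and that array also had the lowest limit and the highest share of all genes above background. Hoxb7 passed on the WT array alone (6.81, against 4.39 and 1.83). Hoxc6 passed on the WT (7.91) and Atmp38dKO (7.99) arrays but not on the AtmsKO array (4.63). Hoxc4 passed on both mutant arrays and is described below.

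**Figure D1:**
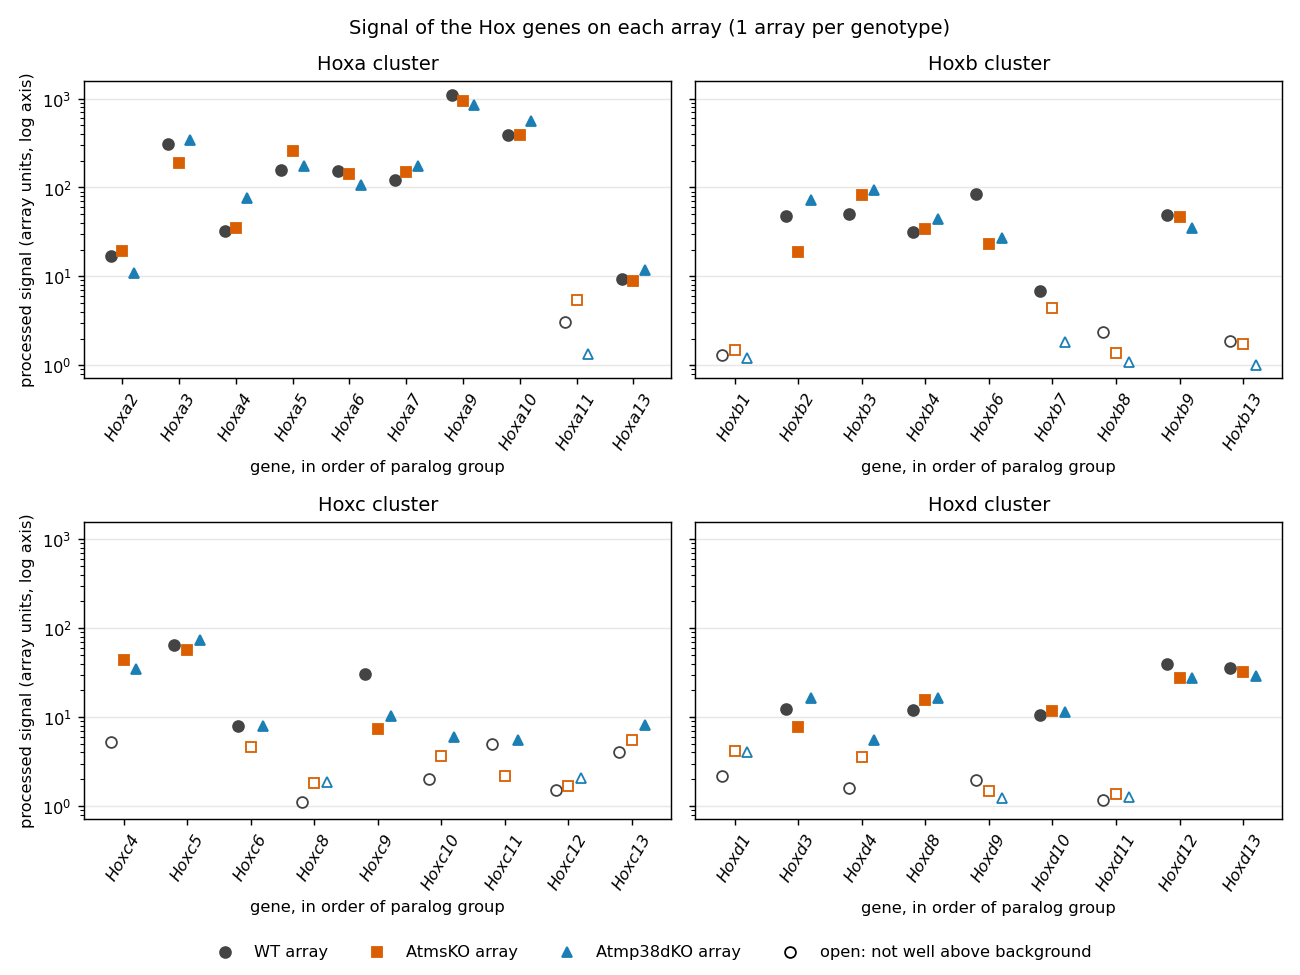
Processed signal (array units, log axis) of each Hox gene on the WT, AtmsKO and Atmp38dKO arrays, by cluster and in order of paralog group. Filled symbols are well above background and open symbols are not. In the Hoxa panel every gene but Hoxa11 has 3 filled symbols, while the Hoxc panel has 2 such genes. Different probes bind with different strength, so heights do not compare genes with each other. The signals are unscaled, so small differences in height between arrays can change sign after scaling. Hoxa3 stands higher on the Atmp38dKO than on the WT array (344 against 311 units), while its scaled log2 difference was -0.07.

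Differences between arrays are given as log2 differences of signals scaled to each array's 75th percentile. This percentile was 101.5 units on the WT, 96.2 on the AtmsKO and 117.8 on the Atmp38dKO array. An equal raw signal is therefore a slightly lower scaled level on the Atmp38dKO array. The value after ± is the error that the scanner software estimates for the spots, carried through to the difference. A gene counted as different if it was at least 2-fold apart and well above background on the brighter array. Probes printed repeatedly on the same array give a second measure of error: their median SD was 0.27 to 0.30 (log2) at signals under 30, 0.10 to 0.11 at 30 to 300 and 0.05 at 300 or more. Both errors cover the array and not the mice.

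Between the AtmsKO and WT arrays, 24 Hox genes could be compared, and 4 differed at least 2-fold. Hoxc4 was higher on the AtmsKO array, and Hoxb2, Hoxb6 and Hoxc9 were lower. Over all genes 3.96% were at least 2-fold higher and 4.11% lower. The Hox genes are mostly dim, and dim genes differed more often: among genes with a mean signal under 100 the share at least 2-fold apart in either direction was 12.2%, beside 4 of 18 Hox genes (22.2%), and among genes of 100 or more it was 1.62%, beside 0 of 6 Hox genes. The median log2 difference of the 24 Hox genes was -0.02, and that of all genes was 0.01. Of the 21 Hox genes above background on all 3 arrays, 9 were higher and 12 lower on the AtmsKO array.

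Between the Atmp38dKO and WT arrays, 28 Hox genes could be compared and 3 differed at least 2-fold, with Hoxc4 higher and Hoxb6 and Hoxc9 lower. Over all genes 4.05% were higher and 4.52% lower. Among genes with a mean signal under 100, 3 of 22 Hox genes (13.6%) were at least 2-fold apart beside 12.3% of all genes, and at 100 or more 0 of 6 beside 2.24%. The median log2 difference of the Hox genes was -0.08, and that of all genes was 0.02. Over the 21 Hox genes above background on all 3 arrays, which need no bound, it was -0.07. This comparison and the one before share the WT array, so a high or low WT value enters both.

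Between the Atmp38dKO and AtmsKO arrays, 27 Hox genes could be compared. Hoxb2 was at least 2-fold higher on the Atmp38dKO array and Hoxa2 at least 2-fold lower, where over all genes 3.78% were higher and 3.74% lower. Under a mean signal of 100 this was 2 of 21 Hox genes (9.52%) beside 10.9% of all genes, and at 100 or more 0 of 6 beside 1.79%. The medians were -0.10 for the Hox genes (-0.06 for the 21 above background on all 3 arrays) and -0.00 for all genes. In the last 2 comparisons the Hox shares lay near those of all genes with a mean signal under 100, so the counts there are not a result about Hox genes. For AtmsKO against WT the Hox share was higher, 4 of 18 beside 12.2%, but it rests on few calls and 1 array per group. Among these calls Hoxb6, Hoxc4 and Hoxc9 have 1 probe each, so this count is not taken as a result about Hox genes either.

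At the 8-fold threshold, Hoxc4 against WT on the AtmsKO array was the only Hox call in the 3 comparisons. The shares of all genes at least 8-fold higher and lower were 0.32% and 0.258% for AtmsKO against WT, 0.104% and 0.33% for Atmp38dKO against WT, and 0.0894% and 0.361% for Atmp38dKO against AtmsKO.

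**Figure D2:**
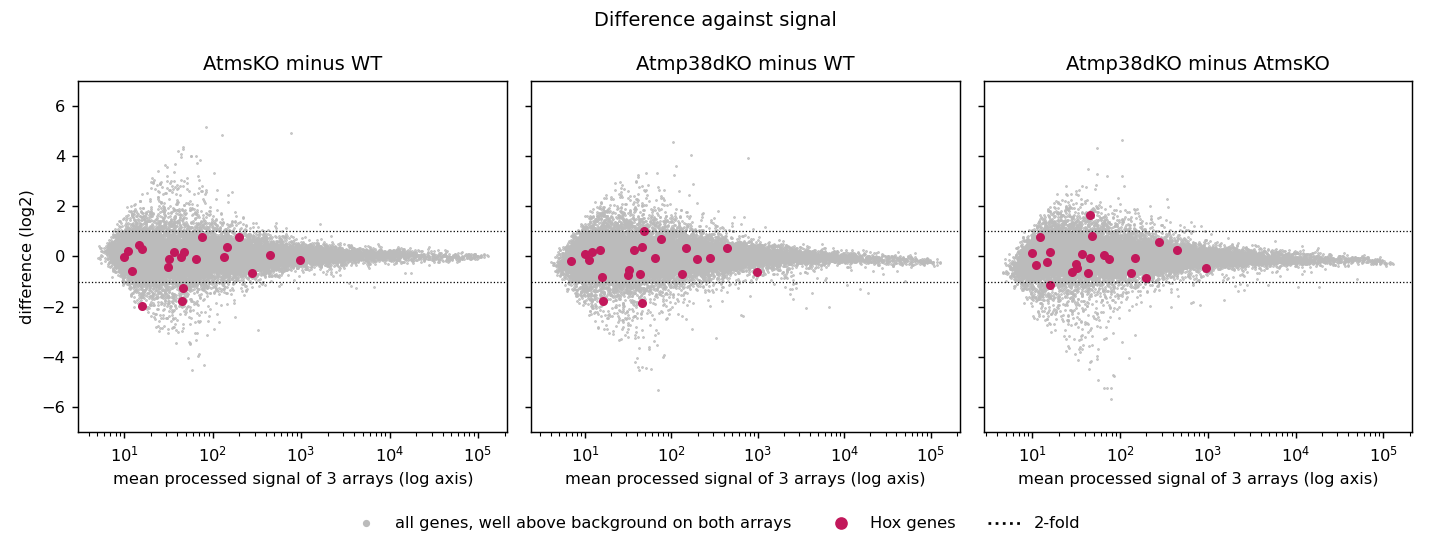
Log2 difference against the mean processed signal of the 3 arrays (log axis), for AtmsKO minus WT, Atmp38dKO minus WT and Atmp38dKO minus AtmsKO. Grey points are all genes well above background on both arrays, red points are Hox genes, and dotted lines mark 2-fold. The grey cloud is widest at low signals, where most Hox genes lie, and all 6 Hox genes with a mean signal of 100 or more stay between the dotted lines.

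The Hoxa genes, the cluster best known from blood stem cells and from MLL-rearranged leukemia, stayed within 2-fold of WT on both mutant arrays. Hoxa9, which drives self-renewal together with Meis1, read 1110 units on the WT, 943 on the AtmsKO and 847 on the Atmp38dKO array. Its log2 difference from WT was -0.16 ± 0.20 for AtmsKO and -0.61 ± 0.20 for Atmp38dKO. Hoxa10, its neighbour, read 384, 384 and 564 (0.08 ± 0.20 and 0.34 ± 0.20). Hoxa7 read 120, 148 and 174 units, and its differences from WT were 0.38 ± 0.20 and 0.32 ± 0.20. Hoxa6, whose probe with the PBX-binding motif is shown above, read 152, 140 and 108, so the Atmp38dKO array was the low one (-0.71 ± 0.20 against WT and -0.67 ± 0.20 against AtmsKO).

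Hoxa5, a regulator of myeloid and erythroid output, was highest on the AtmsKO array, with 159, 259 and 173 units and a log2 difference from WT of 0.78 ± 0.20. Hoxa4 was highest on the Atmp38dKO array, with 32.6, 35.1 and 75.4 units, and lay just under 2-fold above WT there (1.00 ± 0.21). Hoxa3 was lowest on the AtmsKO array, with 311, 187 and 344 units (-0.66 ± 0.20 against WT). Among these 3 neighbours Hoxa5 was thus high on the AtmsKO array, Hoxa4 high on the Atmp38dKO array and Hoxa3 low on the AtmsKO array.

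At the ends of the cluster the signals were dim. Hoxa2, the most 3′ Hoxa gene analysed, read 16.8, 19.5 and 10.9 units, which is 2.19-fold lower on the Atmp38dKO than on the AtmsKO array (-1.13 ± 0.27). Hoxa13, the most 5′ gene of the cluster, read 9.35, 8.78 and 11.7, with differences from -0.01 to 0.13 against errors of 0.30 to 0.34. Hoxa11 was well above background on no array. The median log2 difference of the 9 Hoxa genes was 0.08 for AtmsKO against WT, -0.07 for Atmp38dKO against WT and -0.06 for Atmp38dKO against AtmsKO.

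The Hoxb cluster held 2 of the 3 genes that were at least 2-fold lower on the AtmsKO than on the WT array. Hoxb6, a gene of the middle of the cluster, read 84.3 units on the WT array against 23.3 on the AtmsKO and 27.4 on the Atmp38dKO array. This is 3.42-fold lower (-1.78 ± 0.22) and 3.58-fold lower (-1.84 ± 0.21) than WT, and both mutant arrays were within 0.06 of each other on the log2 scale. Hoxb2 read 47.7, 18.7 and 71.9 units, 2.42-fold lower on the AtmsKO array than on the WT array (-1.27 ± 0.23). It was 3.14-fold higher on the Atmp38dKO than on the AtmsKO array (1.65 ± 0.23), so only the AtmsKO array stood apart.

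Hoxb4, the Hoxb gene whose forced expression expands HSCs, read 31.6, 34.0 and 44.0 units. Its differences from WT were 0.18 ± 0.22 and 0.26 ± 0.22, about as large as the error of the spots. Hoxb9 read 49.0, 46.1 and 35.5, lower on the Atmp38dKO array (-0.68 ± 0.21) and level on the AtmsKO array (-0.01 ± 0.21). Hoxb3 read 50.3, 82.6 and 94.6 units at the chosen probe, 0.79 ± 0.21 and 0.70 ± 0.21 above WT, but its probes disagreed, as described below. Hoxb1, Hoxb8 and Hoxb13 were well above background on no array.

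In the Hoxc cluster, Hoxc4 and Hoxc9 moved in opposite directions from WT. Hoxc4 was not well above background on the WT array (5.30 units) but read 44.2 on the AtmsKO and 35.0 on the Atmp38dKO array. Set against the lowest signal well above background on the WT array, this is at least 8.75-fold higher on the AtmsKO and at least 5.66-fold higher on the Atmp38dKO array. Hoxc9 read 30.5, 7.30 and 10.2 units, 3.96-fold lower than WT on the AtmsKO array (-1.98 ± 0.32) and 3.45-fold lower on the Atmp38dKO array (-1.79 ± 0.25). For both genes the WT array stood apart from both mutant arrays. Hoxc5, which lies between them, read 65.5, 57.1 and 73.2 units, and its differences from WT were -0.12 ± 0.21 and -0.05 ± 0.21. Each of these 3 genes was read by 1 probe only.

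No Hoxd gene differed 2-fold in any comparison. Hoxd3 read 12.4, 7.82 and 16.3 units, and its largest difference, 0.77 ± 0.35, was between the Atmp38dKO and AtmsKO arrays. Hoxd8 read 11.97, 15.7 and 16.6 (0.47 ± 0.29 and 0.25 ± 0.28 against WT), and Hoxd10 read 10.6, 11.6 and 11.3 (0.20 ± 0.30 and -0.13 ± 0.28). At the 5′ end, Hoxd12 read 39.5, 27.7 and 27.2 and Hoxd13 read 36.1, 31.9 and 28.7, both highest on the WT array. Their differences from WT were -0.43 ± 0.22 and -0.10 ± 0.22 for AtmsKO, and -0.76 ± 0.22 and -0.54 ± 0.22 for Atmp38dKO. Hoxd12 and Hoxd13 are known as patterning genes of limb and genitalia.

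**Figure D3:**
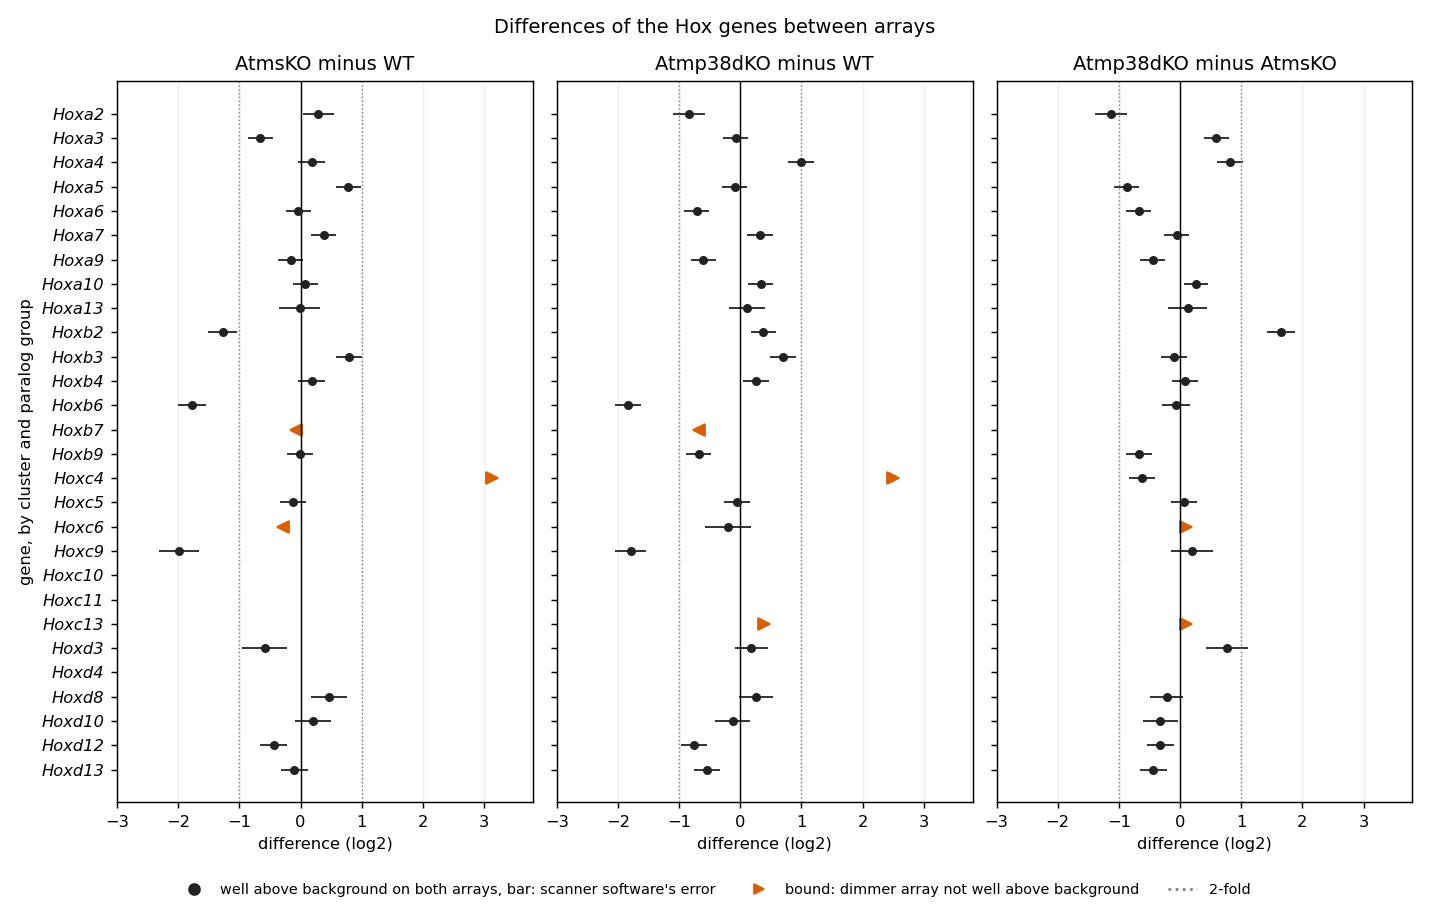
Log2 differences of the 28 Hox genes well above background on at least 1 array, for AtmsKO minus WT, Atmp38dKO minus WT and Atmp38dKO minus AtmsKO. Black points carry the error of the scanner software, orange triangles are lower bounds where the dimmer array was not well above background, and no symbol is drawn where no bound could be set. Hoxb6 and Hoxc9 lie left of the dotted 2-fold line in both panels against WT, and Hoxc4 lies far right as a bound of 3.13 and 2.50.

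Clusters and positions were compared by their medians over the 21 genes above background on all 3 arrays, since a bound against a dim array can come out with the wrong sign. For AtmsKO against WT the median log2 difference was 0.08 for Hoxa (9 genes), -0.01 for Hoxb (5), -1.05 for Hoxc (2) and -0.10 for Hoxd (5). For Atmp38dKO against WT it was -0.07, 0.26, -0.92 and -0.13 in the same order. Each Hoxc median is the midpoint of Hoxc5 and Hoxc9. By position, paralog groups 1 to 3, 4 to 8 and 9 to 13 had medians of -0.59 (5 genes), 0.18 (8) and -0.06 (8) for AtmsKO against WT, and of 0.18, 0.10 and -0.57 for Atmp38dKO against WT. Of the 8 genes of groups 9 to 13, 6 were lower than WT in AtmsKO and 6 in Atmp38dKO, and both counts share the WT array. Among all genes above background on all 3 arrays, 12034 and 12340 of 25532 were lower. Hoxa13 and Hoxb9 count as lower in AtmsKO but were level there (-0.01 each, within their errors). Hoxa9 (-0.16 ± 0.20) and Hoxd13 (-0.10 ± 0.22) were within their errors there too, and the other Hoxa9 probes were higher than WT (0.29 and 0.56). Only Hoxc9 and Hoxd12 of these genes were lower in AtmsKO by more than their error. In Atmp38dKO, Hoxd10 counts as lower but was within its error (-0.13 ± 0.28). Within groups 9 to 13 the differences ran from -1.98 to 0.20 on the AtmsKO array. The low median of groups 1 to 3 rests on 3 of 5 genes, Hoxa3, Hoxb2 and Hoxd3.

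Paralogs differed from WT alike in some groups and not in others. On the AtmsKO array the genes of group 10 (Hoxa10 0.08, Hoxd10 0.20) and of group 13 (Hoxa13 -0.01, Hoxd13 -0.10) lay within their errors of each other on the log2 scale. Group 2 held 0.29 for Hoxa2 and -1.27 for Hoxb2, and group 5 held 0.78 for Hoxa5 and -0.12 for Hoxc5. In group 4, Hoxa4 and Hoxb4 were 0.18 above WT on the AtmsKO array on the log2 scale, Hoxc4 at least 3.13 above, and Hoxd4 was above background on neither. In group 6, the difference of the AtmsKO from the WT array was -0.04 for Hoxa6 and -1.78 for Hoxb6, and Hoxc6 was at background on the AtmsKO array. In group 9, Hoxa9 and Hoxb9 differed from WT on the AtmsKO array by -0.16 and -0.01 and Hoxc9 by -1.98.

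The starts of 3 group 4 genes are shown for comparison, since Hoxc4 had the largest difference of any Hox gene. They are the 250 bases before the RefSeq start (assembly GRCm38.p6), with each CG in capitals, the dinucleotide whose density marks CpG islands. The 14 CG of Hoxb4 (chr11:96318017-96318266), the 8 of Hoxc4 (chr15:103034145-103034394) and the 3 of Hoxd4 (chr2:74721728-74721977, all plus strand) stand beside a median of 6 over 32851 promoters of the same length:
Hoxb4: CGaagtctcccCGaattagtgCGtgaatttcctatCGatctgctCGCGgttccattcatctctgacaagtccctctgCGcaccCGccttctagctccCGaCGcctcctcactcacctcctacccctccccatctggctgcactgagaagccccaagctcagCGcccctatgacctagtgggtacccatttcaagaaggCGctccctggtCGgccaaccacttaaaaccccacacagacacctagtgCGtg
Hoxc4: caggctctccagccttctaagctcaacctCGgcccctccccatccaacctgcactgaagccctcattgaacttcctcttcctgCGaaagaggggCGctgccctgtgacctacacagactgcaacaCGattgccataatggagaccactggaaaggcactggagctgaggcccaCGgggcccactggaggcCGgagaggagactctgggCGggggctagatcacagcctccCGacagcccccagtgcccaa
Hoxd4: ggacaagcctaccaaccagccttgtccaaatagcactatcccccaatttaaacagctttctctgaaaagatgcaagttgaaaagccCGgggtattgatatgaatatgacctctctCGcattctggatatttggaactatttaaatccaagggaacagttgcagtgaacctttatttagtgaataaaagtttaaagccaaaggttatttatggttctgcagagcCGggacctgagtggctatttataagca

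RefSeq promoters were found for 22 of the 37 Hox genes, 24 sequences in all. Their median was 12.5 CG, with a range of 2 to 35. The 15 promoters of genes above background on all 3 arrays had a median of 14, and the 7 of genes above background on none had 13. The TATA motif TATAAA, searched on both strands, was in 16.7% of the Hox promoters and 12.4% of all promoters. TGACAG, the core bound by MEIS proteins, was in 2 of 24 (8.33%), those of Hoxa2 and Hoxa3, and in 15.9% of all promoters. CCAAT, on either strand, was in 58.3% of the Hox and 33.8% of all promoters. A match is a description of letters and not of binding.

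Of the 37 genes, 10 had more than 1 probe, and 5 of these, Hoxa3, Hoxa9, Hoxa10, Hoxb2 and Hoxb3, had a second probe well above background on at least 1 array. The second probes of Hoxb9 (1.33, 1.53 and 1.27 units), Hoxd8 (1.17, 1.38 and 2.43), Hoxc6 and Hoxc13 were at background on all 3 arrays. Where these genes were counted as above background, in total or by cluster and position, the count rests on the brighter probe alone. The second Hoxa3 probe, in the same mRNA, read 194, 96.2 and 163 units, again lowest on the AtmsKO array (-0.94 against WT, beside -0.66). The other Hoxa3 probe, from another transcript and dim, read 7.89, 9.83 and 10.7 and went the other way (0.40 against WT on the AtmsKO array). Hoxa10 repeated its higher value on the Atmp38dKO array (131, 176 and 190 units, 0.32 above WT beside 0.34). The second Hoxa9 probe read 247, 285 and 212, again lowest on the Atmp38dKO array (-0.44 against WT beside -0.61), but on the AtmsKO array it was 0.29 higher than WT where the first probe gave -0.16. The remaining Hoxa9 probe, a dim one, read 15.8, 22.0 and 11.1, with 0.56 and -0.73 against WT. All 3 Hoxa9 probes were thus lowest on the Atmp38dKO array, while on the AtmsKO array they differed in sign.

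The Hoxb3 probes disagreed in direction. The chosen probe, which spans an exon junction (chr11:96202427-96205434), was lowest on the WT array, while a probe in the homeobox read 74.3 (WT), 28.6 (AtmsKO) and 54.0 (Atmp38dKO). The homeobox probe was thus highest on the WT array, with log2 differences from WT of -1.30 and -0.68 where the junction probe gave 0.79 and 0.70. A dim probe of another transcript read 14.9, 21.1 and 20.5, with 0.57 and 0.24 against WT. So 2 of the 3 Hoxb3 probes were higher than WT on both mutant arrays and 1 was lower.

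The second probe named Hoxb2 in the files was taken from a cDNA clone and lies on the minus strand (chr11:96211860-96211919), opposite to Hoxb2, so it does not read the Hoxb2 mRNA. It is shown because it was at background on both mutant arrays:
AK036636: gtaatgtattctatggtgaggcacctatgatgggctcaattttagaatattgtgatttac

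It read 55.2 units on the WT array, and neither its AtmsKO signal (5.42) nor its Atmp38dKO signal (2.62) was well above background. The bounds were log2 differences of -3.10 and -3.69. On the Atmp38dKO array the sense probe went the other way (71.9 against 47.7 units on the WT array).

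**Figure D4:**
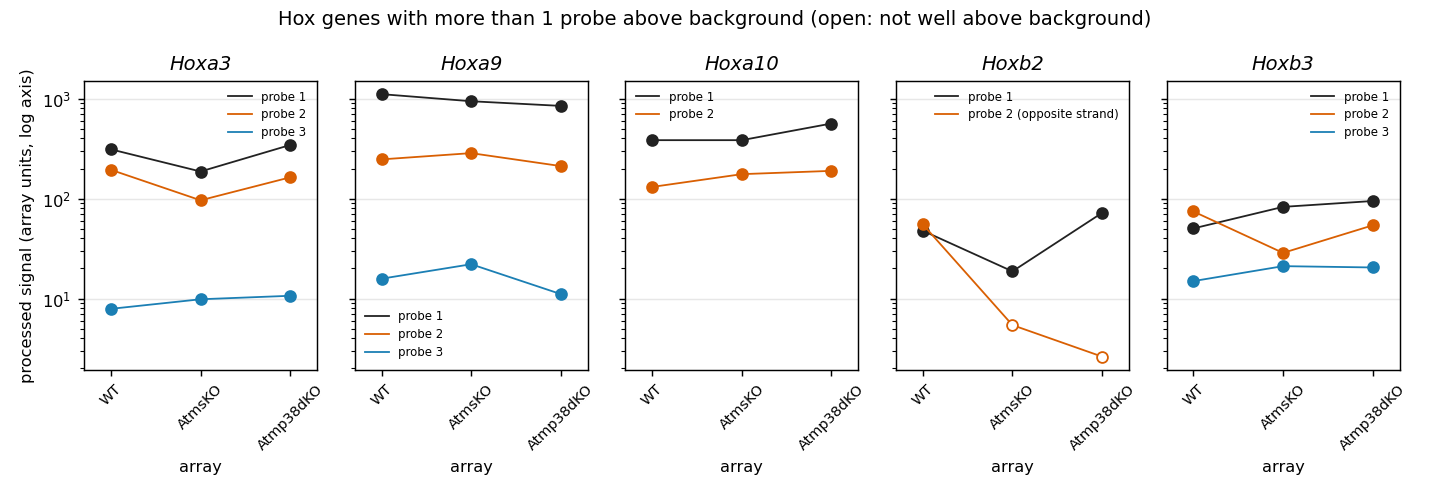
Processed signal (array units, log axis) on the 3 arrays of each probe of Hoxa3, Hoxa9, Hoxa10, Hoxb2 and Hoxb3, with filled symbols well above background and open symbols not. Probe 1 is the one used for the gene. Hoxa3 probes 1 and 2 are both lowest on the AtmsKO array and probe 3 is lowest on the WT array, the lines of Hoxb3 probes 1 and 2 cross, and the opposite-strand probe in the Hoxb2 panel drops below background on both mutant arrays.

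Counted over all second and further probes of these genes above background on both arrays, 3 of 7 had the direction of the chosen probe for AtmsKO against WT, 5 of 7 for Atmp38dKO against WT and 4 of 7 for Atmp38dKO against AtmsKO. Over all genes the shares were 52.9%, 53.6% and 54.4%, near an even split. They were 51.0%, 52.5% and 52.6% where the other probe had a mean signal under 100. Where the other probe had a mean signal of 300 or more they were 64.4%, 62.3% and 68.0%. Among genes whose chosen probe was at least 2-fold apart, the other probes shared its direction in 53.6%, 56.1% and 56.1% of cases. Hoxb6, Hoxc4 and Hoxc9 have no other probe, so their directions rest on 1 dim probe each.

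Noncoding transcripts run between the Hox genes, many of them antisense. Inside the 4 clusters 31 further probes lie between the outermost Hox probes, of which 21 passed as well above background on all 3 arrays, 8 in Hoxa, 8 in Hoxb, 1 in Hoxc and 4 in Hoxd. Mira, a noncoding RNA between Hoxa6 and Hoxa7, read 891, 789 and 1071 units, with log2 differences from WT of -0.10 and 0.05. Hoxaas2, antisense beside Hoxa3, read 686, 672 and 864 (0.05 and 0.12). Haglr, antisense in the Hoxd cluster, read 151, 138 and 177 (-0.05 and 0.02). HOTAIR, the Hoxc transcript known to act with Polycomb, was well above background on no array. Beside Mira, Hoxa6 and Hoxa7 differed from WT by -0.71 and 0.32 on the Atmp38dKO array.

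The 21 probes are not 21 transcripts, since Hoxa11os has 2 of them and some intergenic ones in the Hoxb cluster were designed on overlapping regions. Of these probes, 16 were higher on the Atmp38dKO than on the WT array (median 0.19) and 18 higher than on the AtmsKO array (median 0.19), while 8 were higher on the AtmsKO than on the WT array (median -0.10). Over all genes above background on all 3 arrays, 13192, 12483 and 13498 of 25532 were higher in these comparisons, and the medians were 0.01, -0.01 and 0.02. With overlapping probes and 1 array per group, the counts of probes are a description only. Over the probes that the files name only by a chromosome position the medians were 0.04, 0.02 and 0.01. Of the 26 probes above background on at least 1 array, 3 differed at least 2-fold from WT on the Atmp38dKO array, 1 higher and 2 lower, all of them dim, where 12.3% of genes with a mean signal under 100 did so. AK039882 read 26.4, 39.7 and 65.0 units, 2.13-fold higher than WT there. ENSMUST00000070587 read 28.9, 8.01 and 8.48, 3.95-fold lower than WT, and 3.42-fold lower on the AtmsKO array. Hoxd3os1, antisense at Hoxd3, read 9.43 on the WT array and was at background on the others, at least 2.20-fold lower on the Atmp38dKO array, but its RefSeq probe was at background on all 3 arrays (1.11, 1.44 and 1.02). Hoxaas3 read 28.8, 29.1 and 50.8 units at its RefSeq probe. A cDNA clone of that name, AK053996, has its probe on the opposite strand, so it does not read Hoxaas3. It read 10.3, 2.85 (at background) and 23.7 units, at least 3.17-fold higher on the Atmp38dKO than on the AtmsKO array.

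The partners of Hox proteins, the TALE homeodomain factors, showed no 2-fold difference in any comparison at their chosen probes. A dim second Pbx2 probe, above background on the Atmp38dKO array alone, was higher there by at least 1.29 than WT and 1.04 than AtmsKO. Of the 9 genes, 8 were well above background on all 3 arrays, and over these 8 the median log2 difference was -0.02 for AtmsKO against WT and -0.04 for Atmp38dKO against WT. Meis1 read 971, 1006 and 1106 units (0.13 and -0.03 against WT), and Meis3 read 627, 591 and 704 (-0.01 and -0.05). Both stayed within the error of the spots at these probes. Dimmer probes of the same genes ranged wider: a Meis3 probe gave -0.94 and -0.56 against WT, and Meis1 probes gave -0.41 and -0.42, and 0.25 and 0.18. Pbx2 read 136, 166 and 129, Pbx3 read 111, 90.4 and 108, and Meis2 read 36.3, 38.1 and 46.3, with differences from WT of -0.29 to 0.37. Pbx4 had the widest difference, 106 units on the AtmsKO and 248 on the Atmp38dKO array (0.93). Pknox1 read 76.8, 70.9 and 90.5 at the chosen probe, but its other 2 probes gave 1.58 and -0.85 for AtmsKO against WT, in opposite directions. Pknox2 was above background on the Atmp38dKO array alone (8.88).

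The chromatin regulators of Hox genes were all well above background on all 3 arrays. At the chosen probes, 1 of 20 genes of the MLL group, the machinery that keeps Hox genes on, was at least 2-fold higher than WT on each mutant array. This is near the share of all genes, 3.96% on the AtmsKO and 4.05% on the Atmp38dKO array. None was 2-fold lower at the chosen probe, but a second Rbbp5 probe gave -1.14 and -1.06 against WT. The higher gene was Kdm6a, an H3K27 demethylase, with 53.7, 168 and 150 units (1.72 and 1.26), but its other 2 probes above background were lower than WT on both mutant arrays (-0.32 and -0.49 on the AtmsKO, -0.64 and -0.33 on the Atmp38dKO array). Mllt6 differed by 0.90 and 0.73 from WT at its brightest probe, beside -0.16 and -0.02 at the next. Aff1 differed by 0.90 between the Atmp38dKO and AtmsKO arrays, beside -0.02 at its other probe, and Kdm6b by -0.79 in the same comparison. Kmt2a, which encodes MLL and was picked after its values were seen, read 1395, 936 and 1093 units (-0.50 and -0.57), and its other 2 probes were also lower than WT on both mutant arrays (-0.13 and -0.15 for AtmsKO, -0.41 and -0.67 for Atmp38dKO).

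At the chosen probes, 1 of 26 Polycomb genes was at least 2-fold lower on the AtmsKO than on the WT array, beside 4.11% of all genes. Another 1 was 2-fold higher on the Atmp38dKO than on the AtmsKO array, beside 3.78%, so both counts are near the share of all genes. None differed 2-fold between the Atmp38dKO and WT arrays, but some other probes did (Jarid2 1.42, Suz12 1.11 and Phc3 -1.11). The lower gene was Cbx8, a reader of H3K27 methylation in PRC1, with 52.8, 16.0 and 38.5 units (-1.65 against WT), whose other probe was at background. The higher gene was Jarid2, a cofactor of PRC2, with 167, 108 and 284 units (1.105 between the mutant arrays), beside -0.02 and 0.10 at its other 2 probes. Ring1 differed by -0.89 from WT on the Atmp38dKO array and Pcgf6 by -0.88 between the mutant arrays, beside 0.26 at its other probe. Median log2 differences of the MLL and Polycomb lists lay between -0.04 and 0.04 in all 3 comparisons. The Cdx genes, activators of Hox genes in the embryo, were at background, but for Cdx1 on the Atmp38dKO array (10.47 units).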

How the data were processed

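Total RNA of sorted LT-HSCs from WT, AtmsKO and Atmp38dKO mice carried Cy3 label on 1 Agilent array each, all on the same slide and scan. The labels give CD150+, CD48-, Flt3- and CD34- LSK cells, the series text names CD34 and Flt3, and the methods add CD41. The deposited scanner files hold intensity values per spot from Agilent Feature Extraction 11.5.1.1, background-subtracted within the array and not normalized between arrays, with their error and flags, and probe positions on mm9. The authors also deposited log2 values scaled to the 75th percentile, which equaled the same scaling of the scanner values within 0.02 for 99.6% to 99.8% of probes. The deposited annotation columns (unit other) were used for names only.

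Control and outlier spots were left out and repeat spots averaged. Being well above background required that flag on over 50% of a probe's spots. Values were log2 of the processed intensity minus the array's 75th percentile. A value not well above background was raised to the lowest one that was, and a difference against it is a bound, written as at least N-fold. Such values enter medians at their bound, except the medians by cluster and position. RefSeq accessions named 32989 of 56605 probes (GRCm38.p6, names only). Scaling leaves relative levels only, and precision is limited by having 3 arrays.

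The study counted genes at 8-fold. Here 2-fold was used, with 8-fold and 1.5-fold as alternatives. The Hox genes, the gene lists (TALE, MLL, Polycomb, Cdx and cell markers) and the rules were chosen with earlier results of these data known. Named were all Hox genes, the TALE genes (1 is not reported here), transcripts inside the clusters that were bright or at least 2-fold apart, and up to 4 genes with the widest differences per regulator list, with Kmt2a in addition. Functions were tested on data with known changes. Python 3.11.15, pandas 2.3.3, numpy 2.4.6 and limma 3.58.1 (R 4.3.3, for the normexp alternative) were used. Other alternatives were the median of detected probes, quantile normalization, the authors' log2 values, no floor, other filters on dim probes and the mean of all probes of a gene.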

Additional observations from a re-analysis of the deposited data

How the results depend on the processing

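The counts of Hox genes above background (23, 22 and 27) were the same when every spot had to pass. They were also the same for any probe of the gene, which could hardly differ because the brightest probe was already the one used. By the positive-and-significant flag they were 34, 33 and 33, and in a split added after seeing the data this flag also changes the order of the clusters. All Hox calls come from signals under 100 units, so normexp correction with an offset of 50, which by construction shrinks dim differences, left 0 Hox genes at least 2-fold apart in either direction in all 3 comparisons. Named calls kept their sign under every alternative run. This could hardly differ for Hoxa2, Hoxb6, Hoxc4 and Hoxc9, since each has 1 probe and every alternative used the same spots. Asking for both arrays above background, or for all 3 (the latter chosen after seeing the data), gave 0 higher than WT on either mutant array, since Hoxc4 drops out. At 8-fold, 0 were lower than WT on the AtmsKO array, and 0 were higher or lower in both other comparisons. At 1.5-fold, the AtmsKO array had 3 Hox genes above and 5 below WT, the Atmp38dKO array had 3 above and 8 below WT, and between the mutants it was 4 and 5. Without a floor, or with the authors' log2 values, 3 were higher for Atmp38dKO against WT and 2 for Atmp38dKO against AtmsKO, and the median log2 difference of Hox genes between Atmp38dKO and AtmsKO turned from -0.10 to 0.07 (0.067 without a floor), since the floor on the AtmsKO array sets Hoxc10, Hoxc11 and Hoxd4 as lower on Atmp38dKO. It was -0.019 with normexp and -0.25 with the mean of all probes, which also left 0 higher there because it averages the opposite-strand probe into Hoxb2 (0.53). With no filter on dim probes the Hox medians were 0.28, -0.20 and -0.42, where the medians of all genes moved to 0.13, -0.08 and -0.11. A median counted as moved if it shifted by more than 0.08, the repeat-spot error of a difference. No paired analysis was possible because 1 array stands for each group, and for the same reason no array could be left out.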

Other observations

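Genes that flank the Hox clusters were read after the values were seen. Evx2, a homeobox gene beside the 5′ end of the Hoxd cluster, read 345 units on the WT, 311 on the AtmsKO and 417 on the Atmp38dKO array (log2 differences from WT of -0.07 and 0.06). Evx1, its counterpart beyond the Hoxa cluster, was well above background on none, with signals of 1.07 to 3.51. Hottip, the noncoding RNA that starts at the 5′ end of the Hoxa cluster next to Hoxa13, read 12.01, 12.4 and 18.5 units (0.12 and 0.41 against WT), beside 9.35, 8.78 and 11.7 for Hoxa13.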
